A study of Mus musculus with 4 samples.

Results

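The immediate early genes described here were 10 members fixed by symbol, of 32285 genes in the feature list: Egr1, Egr2, Egr3, Fos, Fosb, Jun, Junb, Ier2, Nr4a1 and Dusp1. Single-cell RNA-Seq had been carried out on bone marrow sorted for the LSK phenotype (no lineage markers, Sca-1 and cKit present), which contains the hematopoietic stem cells and multipotent progenitors. One library was prepared at homeostasis and 1 library 9 days after 5-fluorouracil (5-FU), a drug that kills cycling progenitors, given at 100 mg/kg. Each library mixed cells of 2 wild-type mice with cells of 2 mice lacking Sin3B, a corepressor recruited to chromatin at cell cycle genes. Per the study's methods, wild-type mice carried the floxed Sin3B allele (Sin3B F/F), with no Cre named for them. Knockout mice (Sin3B F/F with Vav1-iCre, here Sin3B-/-) carried Cre driven in the whole hematopoietic system. All were on a C57BL/6 background, with male mice named for the homeostasis library. Genotype was read from hashtag antibodies (TotalSeq-B0096 for wild type, TotalSeq-B0157 for knockout), a pairing given by the methods and not by the sample labels.

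Immediate early genes are transcribed within minutes of a signal, from factors already present in the cell and without new protein synthesis. Growth factor and cytokine receptors feed the Ras-ERK cascade, and stress feeds the p38 and JNK cascades. Both end on SRF with its TCF partners and on CREB family factors at the promoters of these genes. The transcripts are short-lived and their products are mostly transcription factors: the zinc finger EGR proteins, the FOS and JUN proteins that pair as AP-1, and the orphan nuclear receptor NR4A1. DUSP1 is a phosphatase that switches MAP kinases off again, and IER2 is a small nuclear protein. EGR1 is known for holding stem cells in quiescence in the marrow. Enzymatic and mechanical handling of tissue can also induce these genes, so levels in sorted cells are those of cells after sorting.

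The kept cells were 10184 wild-type and 4108 Sin3B-/- cells at homeostasis and 4855 wild-type and 3307 Sin3B-/- cells in the 5-FU library. Median depth was 6967 unique molecular identifiers (UMIs) per wild-type cell and 6606 per Sin3B-/- cell at homeostasis, against 9306 and 10940 after 5-FU. Summed Sin3b was 81.7 CPM (the UMIs of a gene scaled to a common total per pool) in wild-type and 23.3 CPM in Sin3B-/- cells at homeostasis, and 113 and 15.1 CPM after 5-FU, so the tags separated the genotypes in the direction the methods give. The floxed exons are not stated, and these UMIs need not come from the deleted stretch. Ly6a (encoding Sca-1) was between 75.9 and 154 CPM and Kit between 194 and 383 CPM in the 4 pools. Summed T lineage markers were at most 1.20 CPM, but most of these genes also served to remove cells with lineage transcripts. That low value was thus largely set by the filter and is no check of the sorting. The libraries shared 76 cell barcodes, 0.318% of those at homeostasis and 0.596% of those after 5-FU. Because each genotype was a single pool of 2 mice per library, no test of genotype is possible. The 95% intervals below are exact Poisson, binomial (Clopper-Pearson) or conditional binomial intervals that cover counting error only. Condition, library preparation and Cell Ranger version coincide and cannot be told apart.

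RefSeq promoter windows of 300 bases (250 before to 50 after each start site, GRCm38.p6) were matched for 7 of the 10 members, and Egr1, Egr3 and Ier2 had no entry. The windows of Fos and Jun, lower in Sin3B-/- cells of both libraries, are shown with those of Fosb, Nr4a1 and Dusp1, which hold a searched motif. Both strands were searched for the CArG box bound by SRF, the cyclic AMP response element TGACGTCA, the AP-1 site TGANTCA and the EGR site GCGNGGGCG, and matches are in capitals.
Fos (chr12:85473640-85473939, plus strand): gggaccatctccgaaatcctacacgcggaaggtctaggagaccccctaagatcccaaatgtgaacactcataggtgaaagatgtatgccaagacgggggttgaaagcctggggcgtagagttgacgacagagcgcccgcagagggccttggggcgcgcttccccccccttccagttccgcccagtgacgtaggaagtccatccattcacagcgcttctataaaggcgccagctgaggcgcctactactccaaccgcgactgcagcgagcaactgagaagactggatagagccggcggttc
Jun (chr4:95052173-95052472, minus strand): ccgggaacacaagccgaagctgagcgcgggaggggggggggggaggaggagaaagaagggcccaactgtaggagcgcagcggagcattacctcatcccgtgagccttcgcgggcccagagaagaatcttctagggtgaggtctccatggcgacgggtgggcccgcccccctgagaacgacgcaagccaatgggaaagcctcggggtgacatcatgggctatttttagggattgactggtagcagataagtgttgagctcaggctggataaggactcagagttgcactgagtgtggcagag
Fosb (chr7:19309996-19310295, minus strand): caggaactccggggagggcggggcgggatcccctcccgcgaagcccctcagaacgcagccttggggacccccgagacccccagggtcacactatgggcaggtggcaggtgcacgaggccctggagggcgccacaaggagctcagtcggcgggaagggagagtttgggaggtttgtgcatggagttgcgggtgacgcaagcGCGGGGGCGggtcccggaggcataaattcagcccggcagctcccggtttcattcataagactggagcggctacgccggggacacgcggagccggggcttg
Nr4a1 (chr15:101266596-101266895, plus strand): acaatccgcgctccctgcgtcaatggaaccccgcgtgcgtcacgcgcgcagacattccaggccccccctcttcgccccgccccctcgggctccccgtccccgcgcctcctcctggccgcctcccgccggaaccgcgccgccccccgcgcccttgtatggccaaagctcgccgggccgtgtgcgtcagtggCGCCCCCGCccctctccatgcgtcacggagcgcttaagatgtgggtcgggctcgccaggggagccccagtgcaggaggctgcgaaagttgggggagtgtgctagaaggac
Dusp1 (chr17:26508423-26508722, minus strand): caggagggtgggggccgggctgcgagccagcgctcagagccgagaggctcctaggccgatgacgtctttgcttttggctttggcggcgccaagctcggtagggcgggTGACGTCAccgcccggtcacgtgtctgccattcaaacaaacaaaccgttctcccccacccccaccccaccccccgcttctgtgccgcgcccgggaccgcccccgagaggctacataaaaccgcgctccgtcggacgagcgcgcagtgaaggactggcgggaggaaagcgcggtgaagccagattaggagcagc

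Fosb held an EGR site 50 to 42 bases before its start, Nr4a1 an EGR site on the opposite strand 60 to 52 bases before its start, and Dusp1 a cyclic AMP response element 143 to 136 bases before its start. None of the searched motifs was found in the windows of Fos, Jun and Junb. Sites more than 250 bases before the start, or not matching the searched letters exactly, would have been missed. Of the 5 start sites of Egr2, 4 had a CArG box in their window, and these windows overlap in part. Among all 32817 mouse windows, 1.63% held a CArG box, 1.79% the cyclic AMP response element, 7.81% an AP-1 site and 5.56% an EGR site. A match describes the letters of a window and not binding.

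At homeostasis the members were transcribed at low level. Wild-type cells held Egr1 at 29.98 CPM (95% interval 28.8 to 31.2), and Sin3B-/- cells at 13.6 CPM (12.3 to 14.9). Fos was at 37.4 CPM (36.1 to 38.8) and 16.3 CPM (15.0 to 17.8), and Jun at 74.5 CPM (72.7 to 76.4) and 42.6 CPM (40.4 to 44.9). For each of these 3 genes the Sin3B-/- pool was lower. Fosb was at 18.8 CPM in wild-type and 14.6 CPM in Sin3B-/- cells, and Junb, an AP-1 subunit often opposed to Jun, at 40.0 and 27.8 CPM. Ier2 was at 60.8 and 56.7 CPM and Nr4a1 at 3.00 and 2.76 CPM, each with overlapping intervals. Dusp1 stood at 13.8 CPM in wild-type and 15.7 CPM in Sin3B-/- cells with overlapping intervals (13.0 to 14.7 and 14.4 to 17.2). With these settings it was the only one of the 8 members with at least 50 UMIs that was higher in the knockout. The log2 ratio of Sin3B-/- over wild type of Nr4a1 was between -0.185 and 0.26 over the settings run. Egr2 and Egr3 gave 5 and 11 UMIs in all wild-type cells and 2 and 1 UMIs in all Sin3B-/- cells, too few for a comparison.

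After 5-FU the same genes were at higher CPM in both genotypes. The level of Egr1 reached 329 CPM in the wild-type pool (324 to 334) against 174 CPM in the Sin3B-/- pool (170.5 to 178). Fos was at 303 CPM (298 to 308) and 207 CPM (203 to 211), and Jun at 488 CPM (482 to 494) and 339 CPM (333 to 344). Again the Sin3B-/- pool was below the wild-type pool for each of the 3. Fosb was at 117 and 72.2 CPM, Dusp1 at 66.1 and 45.5 CPM, and Ier2 at 233 and 198 CPM. Junb, at 166 and 169 CPM, had overlapping intervals, while Nr4a1 was higher in Sin3B-/- cells at 17.8 CPM against 15.0 CPM. Egr3, a close relative of Egr1, was counted 131 times in wild-type and 33 times in Sin3B-/- cells (2.50 and 0.757 CPM). Egr2 gave 24 and 8 UMIs.

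**Figure D1:**
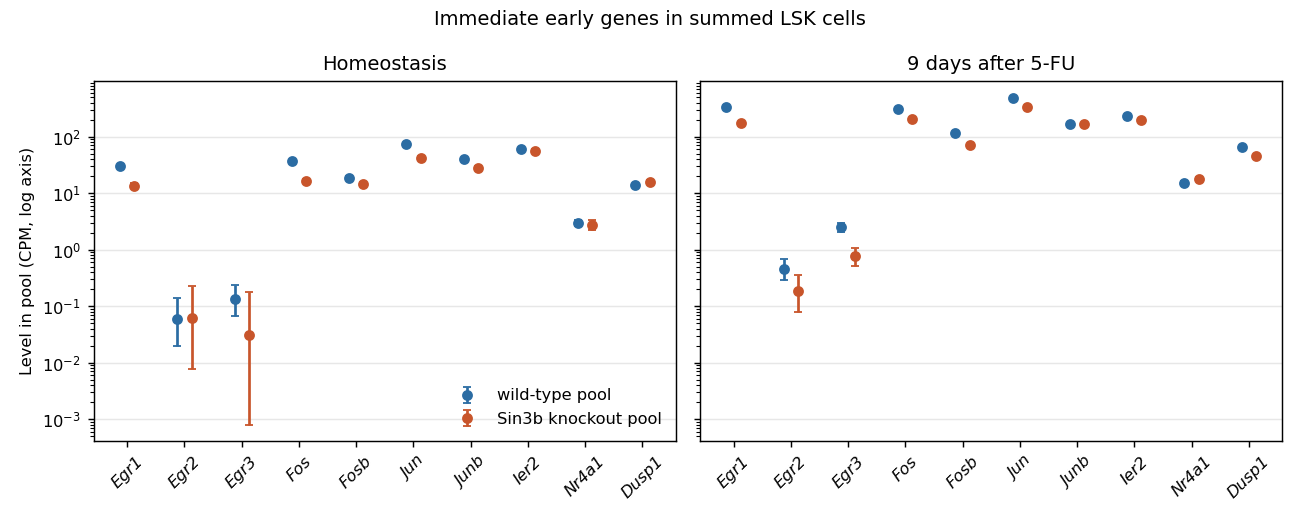
Level of each of the 10 members (CPM, log axis) in the summed wild-type and Sin3B-/- LSK cells of the homeostasis library (left) and the 5-FU library (right). Points are 1 pool each and bars are 95% Poisson intervals for counting error. Egr1, Fos and Jun lie lower in the Sin3B-/- pool on both sides, and Egr2 and Egr3 lie under 3 CPM throughout.

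Set side by side, the 9 members with at least 50 UMIs over both libraries in wild-type cells were higher after 5-FU by 1.94 (Ier2) to 4.18 (Egr3, which reached 50 UMIs only through the 5-FU library) on the log2 scale, with a median of 2.64. Over 15593 genes the median of that difference was -0.17. For the 2590 protein-coding genes with at most 5000 intron bases, the kind of gene to which 8 of the 10 members belong, it was 0.39 with a 95th percentile of 1.79. In Sin3B-/- cells 8 members had a median of 2.64 with a range of 1.53 to 3.68. These values describe 2 libraries, and what part the drug had in them cannot be told apart from the preparation.

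The share of cells with a UMI was compared in cells thinned to 4000 UMIs each, which left out 484 and 228 shallower cells at homeostasis and 512 and 170 after 5-FU. At homeostasis Egr1 was found in 10.52% of wild-type cells (9.91 to 11.1) and 4.67% of Sin3B-/- cells (4.02 to 5.38), and Fos in 12.2% (11.6 to 12.9) and 5.31% (4.63 to 6.06). Jun was found in 23.0% and 14.1% of cells, and Ier2 in 21.6% and 20.5%. Without thinning Egr1 was in 16.5% and 7.01% of cells and Fos in 20.6% and 9.74%. Empty droplets of the homeostasis library held a median of 138 UMIs, 2.07% of the 6659 in a cell, and free RNA at that amount would give a UMI of Egr1 in 0.245%, of Fos in 0.547% and of Ier2 in 0.754% of thinned cells. All 8 members with at least 50 UMIs had shares above this level in both genotypes. The level rests on droplets of over 100 and up to 300 UMIs, a window chosen after seeing the data. Barcodes of 10 to 100 UMIs were richer in the members, with Fos at 1151 CPM against 66.2 CPM in the window and Egr1 at 447 against 29.6 CPM. Shares expected from these smaller barcodes were not computed, so the comparison holds for the window used only. No cluster was of a cell type known to lack these genes.

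After 5-FU Egr1 was found in 49.97% of thinned wild-type cells (48.5 to 51.5) and 37.6% of Sin3B-/- cells (35.9 to 39.3), Fos in 45.8% and 38.5%, and Jun in 64.5% and 55.6%. Junb was found in 42.9% (41.4 to 44.4) and 39.4% (37.7 to 41.2), a slightly lower share in Sin3B-/- cells. Its summed level, of unthinned cells and scaled to the total of each pool, was not lower. Why the share and the summed level differed was not tested. The log2 ratio of Sin3B-/- over wild type of Junb was between -0.11 and 0.24 over the settings run. Without thinning Egr1 was in 63.3% and 53.9% and Junb in 64.5% and 63.4% of cells. The lowest share of any cluster was 23.5% for Egr1 and 26.3% for Fos, and empty droplets of this library were not analysed here.

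Few cells at homeostasis held several members at once. Of 9700 thinned wild-type cells, 38.9% had no UMI of any member, 7.42% had at least 3 members and 29 cells had 5 or more. Of 3880 Sin3B-/- cells, 51.1% had none, 2.94% had at least 3 and 2 cells had 5 or more. After 5-FU 10.0% of 4343 wild-type cells had none and 26.9% had 5 or more, against 12.2% and 16.7% of 3137 Sin3B-/- cells. The genotypes after 5-FU differed more among cells with many members than in the share of cells with none. The median cell held 5 UMIs of the members in wild type and 4 in Sin3B-/-, and the 90th percentile was 20 and 12 UMIs.

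**Figure D2:**
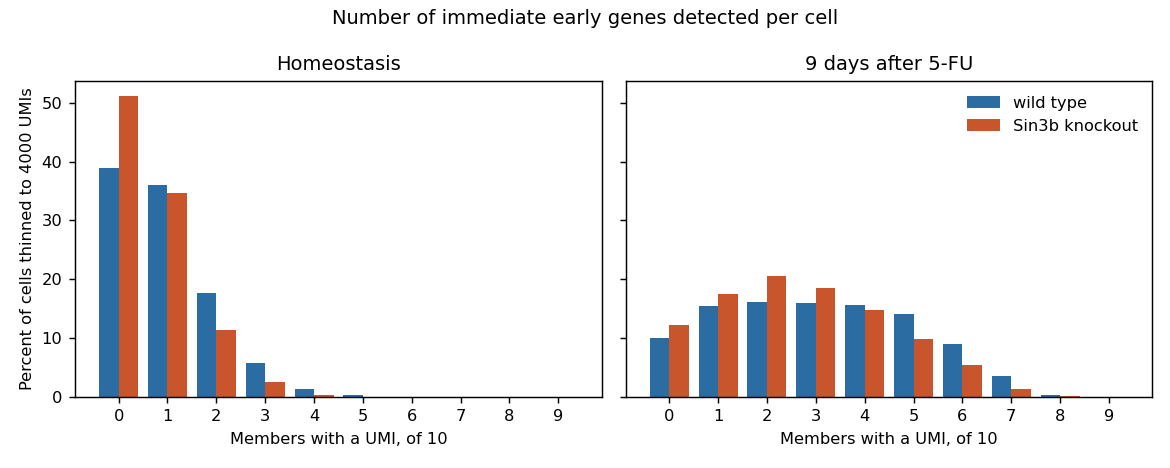
Percent of cells (y axis) by the number of the 10 members with at least 1 UMI (x axis), in cells thinned to 4000 UMIs, wild type and Sin3B-/- side by side. At homeostasis the bar at 0 members reaches 38.9% in wild type and 51.1% in Sin3B-/-, and after 5-FU the wild-type bars exceed those of Sin3B-/- from 4 members to 8.

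The genotype comparison was made as the log2 ratio of Sin3B-/- over wild type within a library, with 0.5 counts added. At homeostasis the 10 members summed to 279 CPM in wild-type and 190 CPM in Sin3B-/- cells, a log2 ratio of -0.55 (-0.59 to -0.51). Fos had a log2 ratio of -1.19 (-1.33 to -1.06), Egr1 of -1.14 (-1.29 to -0.996) and Jun of -0.81 (-0.89 to -0.72). These 3 of the 8 members with at least 50 UMIs were at least 1.5-fold lower, beside 5.08% of 15509 genes in that direction, and no member was among the 5.48% that were at least 1.5-fold higher. With a tag share of at least 80% Jun was at -0.56, no longer 1.5-fold lower. Junb at -0.53 (-0.64 to -0.42) and Fosb at -0.36 (-0.51 to -0.21) were lower by less than 1.5-fold. Ier2 differed by -0.10 (-0.18 to -0.02), and the interval of Nr4a1 held 0. The median of the 8 members was -0.44 against 0.01 over all genes. For Fos, 1.27% of all genes had a ratio as low or lower, and for Egr1 1.40%. The 6283 cells without a genotype tag, left out of these ratios, had Sin3b at 29.0 CPM, near the 23.1 CPM of cells tagged knockout before quality filters and below the 80.3 CPM of cells tagged wild type. Their Fos, at 32.0 CPM, was nearer to cells tagged wild type (36.5 CPM) than to cells tagged knockout (16.6 CPM), while their Egr1, at 16.0 CPM, was nearer to cells tagged knockout (13.3 against 28.9 CPM).

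After 5-FU the sum was 1721 CPM in wild-type and 1224 CPM in Sin3B-/- cells, a log2 ratio of -0.49 (-0.51 to -0.48). Egr3 at -1.71 (-2.32 to -1.16), Egr1 at -0.92 (-0.95 to -0.88) and Fosb at -0.70 (-0.76 to -0.63) were the 3 of 9 members that were at least 1.5-fold lower, beside 4.83% of 13510 genes. Egr3, with 33 UMIs in the Sin3B-/- pool, reached 50 UMIs only through the wild-type pool, and without it 2 of 8 members were lower. Fos at -0.55, Dusp1 at -0.54 and Jun at -0.53 lay just inside that limit. No member was at least 1.5-fold higher, beside 3.66% of genes, and Nr4a1 was the highest at 0.25 (0.10 to 0.39). The median of the 9 members, Egr3 included, was -0.54 against -0.02 over all genes. The number past 1.5-fold was 6 of 9 with each cell thinned to 4000 UMIs, which also left out shallower cells, and 6 with the mean of per-cell CPM. The share of all genes was not recomputed in these settings, so the 4.83% does not belong beside these counts. Nr4a1 had a ratio of -0.041 with the mean of per-cell CPM, the opposite sign. Untagged cells of this library, with Sin3b at 21.7 CPM against 14.7 CPM in cells tagged knockout, had Egr1 at 256 CPM, between cells tagged knockout (153 CPM) and cells tagged wild type (314 CPM).

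**Figure D3:**
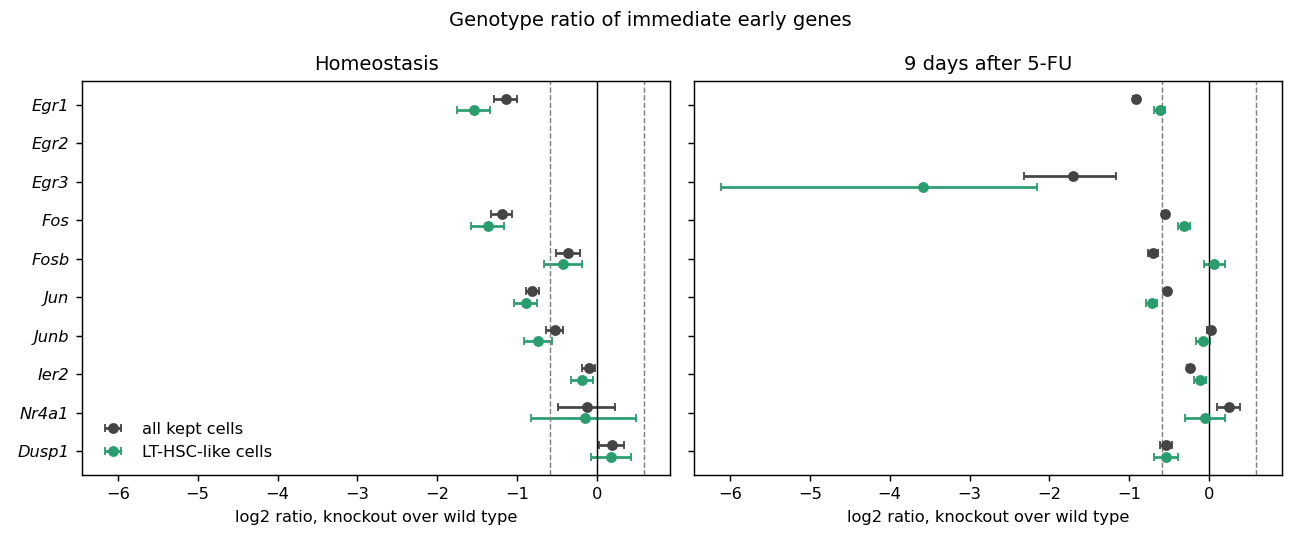
Log2 ratio of Sin3B-/- over wild type (x axis) for each member with at least 50 UMIs in a comparison, over all kept cells and over LT-HSC-like cells, at homeostasis (left) and after 5-FU (right). Bars are 95% conditional binomial intervals for counting error and dashed lines mark 1.5-fold. Egr1 lies below -0.6 in all 4 comparisons, while Fos lies at -1.19 and -1.37 at homeostasis but at -0.55 and -0.31 after 5-FU.

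Long-term hematopoietic stem cells (LT-HSCs) are the self-renewing, mostly quiescent top of the hierarchy. Cells were called LT-HSC-like by clusters in which most of 10 LT-HSC markers were raised, with the members left out of the clustering. At homeostasis these were clusters 6 and 7 (8 and 10 of 10 markers raised), which held 22.1% of wild-type and 39.9% of Sin3B-/- cells, with 1262 and 990 wild-type cells against 855 and 784 Sin3B-/- cells. Here Egr1 was at 66.3 CPM in wild-type and 22.8 CPM in Sin3B-/- cells, a log2 ratio of -1.54 (-1.75 to -1.34). Fos was at 56.3 and 21.8 CPM (-1.37), Jun at 89.6 and 48.3 CPM (-0.89), and Junb at 57.3 and 34.4 CPM (-0.74). These 4 of 8 members were at least 1.5-fold lower, beside 4.46% of 12890 genes, and none was among the 3.2% at least 1.5-fold higher. Egr1 was found in 20.95% of thinned wild-type LT-HSC-like cells (19.2 to 22.8) and 6.77% of Sin3B-/- ones (5.56 to 8.16).

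After 5-FU the LT-HSC-like cells were clusters 1 and 8 (8 and 9 of 10 markers raised), and the genotypes were not spread alike over them. Cluster 1, led by Sult1a1, Cldn5 and Clec1a, held 252 wild-type and 678 Sin3B-/- cells. Cluster 8, led by Neo1, Wfdc17 and Plcl1 and with the member Nr4a1 among its 10 leading genes, held 841 wild-type and 302 Sin3B-/- cells. Over both clusters Egr1 was at 466 CPM in wild-type and 303 CPM in Sin3B-/- cells (log2 ratio -0.62, -0.69 to -0.55), Jun at 510 and 310 CPM (-0.72), and Egr3 was counted 47 times and 3 times (-3.58, -6.12 to -2.15). These were the 3 of 9 members at least 1.5-fold lower, beside 3.98% of 11363 genes. Egr3 just reached the limit of 50 UMIs here, almost wholly through the wild-type pool where it was high, and without it 2 of 8 members were lower. No member was among the 4.11% at least 1.5-fold higher. Fos differed by -0.31 (-0.38 to -0.24) over both clusters and by 0.16 when Sin3B-/- cells were weighted to the wild-type shares of the clusters, so its direction depended on the makeup of the pools. With that weighting Nr4a1 went from -0.06 to 0.81, past 1.5-fold higher, Junb from -0.08 to 0.46, Jun from -0.72 to -0.37, no longer 1.5-fold lower, and the sum of the members went from -0.39 to -0.13. In cells of at least 5000 UMIs Egr1 was at -0.58, just short of 1.5-fold.

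Within the single clusters the direction after 5-FU was not uniform. In cluster 1 Fos was at 709 CPM in wild-type and 188 CPM in Sin3B-/- cells, a log2 ratio of -1.92 (-2.04 to -1.79), and Egr1 at 879 and 314 CPM (-1.49, -1.59 to -1.39). In cluster 8 Fos was at 294 and 451 CPM, a log2 ratio of 0.61 (0.52 to 0.71), while Egr1 was at 384 and 288 CPM (-0.42, -0.52 to -0.32). The counting intervals of Fos in these 2 stem cell-like clusters thus lay on opposite sides of 0, whereas those of Egr1 lay below 0 in both. Junb followed Fos (-1.11 in cluster 1 and 0.68 in cluster 8), and so did Nr4a1 (-1.93 and 1.01), Fosb (-1.48 and 0.51) and Ier2 (-0.61 and 0.12). Jun was lower in both (-1.47 and -0.18). Egr3 gave 15 and 3 UMIs in cluster 1 and 32 and 0 UMIs in cluster 8.

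At homeostasis Egr1 was lower in Sin3B-/- cells in 10 of 10 clusters with at least 50 UMIs, from -2.26 in cluster 10 (G2 and mitotic genes) to -0.63 in cluster 3 (megakaryocyte-erythroid-like), with an interval below 0 in 9. Fos was lower in 10 of 10 clusters (-2.07 to -0.50), and Jun in 11 of 11 (-1.15 to -0.34). Dusp1 was lower in 4 of 10 clusters, and its interval held 0 in all 10. The sum of the members was lower in each of the 11 clusters, between -0.79 and -0.48.

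After 5-FU Egr1 was lower in 10 of 11 clusters, from -1.64 in cluster 7 to 0.15 in cluster 3 (interval -0.11 to 0.42), and at least 1.5-fold lower in 7. Fos was lower in 5 clusters with the interval below 0, and higher in 5 with the interval above 0. The sum of the members was lower by -1.39, -1.12, -0.997 and -1.21 in clusters 1, 5 (led by Ccl3, Stx3 and Paqr5), 6 (led by Ighm, Dntt and Irf8) and 7. It was between -0.17 and 0.30 in the other 7, which include the megakaryocyte-erythroid-like cluster 0 (0.15), cluster 4, led by histone genes such as Hist1h3c (-0.17), and cluster 10 of G2 and mitotic genes (-0.11). The clusters of large difference were also the shallow ones: the median was between 2796 and 9064 UMIs per cell in clusters 1, 5, 6 and 7 and between 9932 and 22780 in the other 7. Within clusters Sin3B-/- cells were deeper than wild-type cells in 10 of 11 (for example 7484 against 6602 UMIs in cluster 1). The exception, cluster 7, had 1928 UMIs and 19.3% mitochondrial UMIs per Sin3B-/- cell against 3434 and 7.06% per wild-type cell. The part of depth in these differences was not tested. Without cluster 7 the sum over all cells was -0.49, the same as with it.

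**Figure D4:**
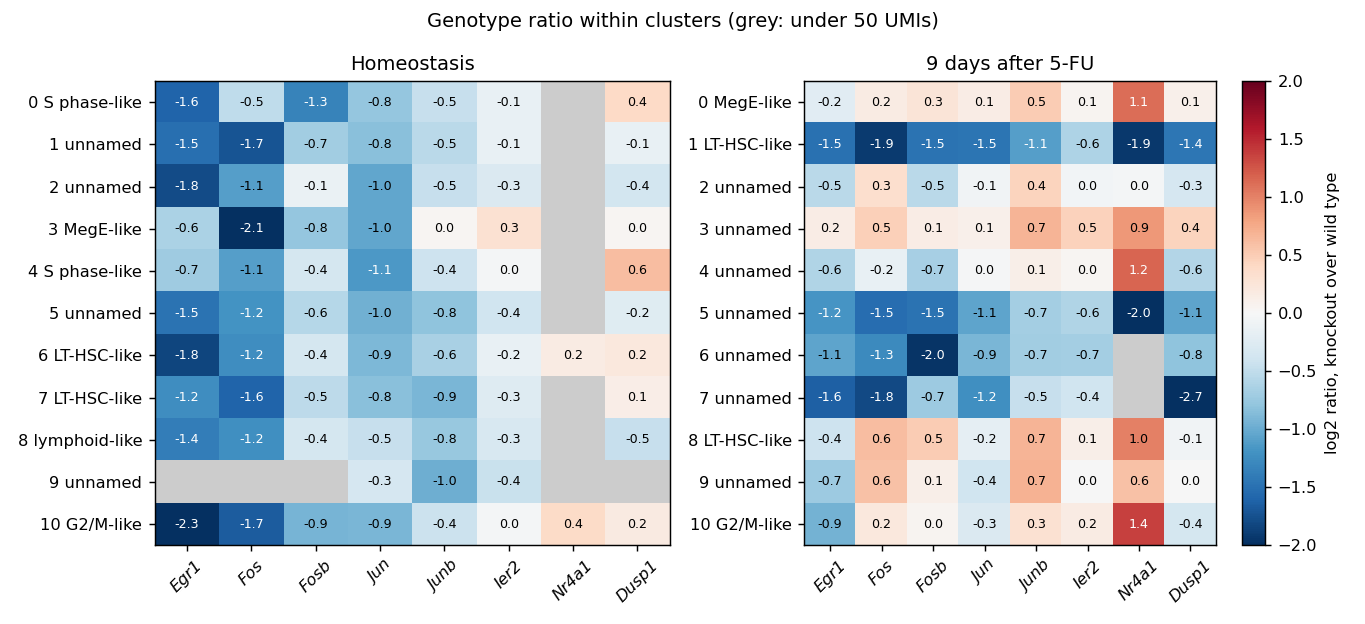
Log2 ratio of Sin3B-/- over wild type (colour and printed value, blue lower and red higher in Sin3B-/-) for 8 members in each cluster with at least 50 cells of both genotypes, at homeostasis (left) and after 5-FU (right). Grey marks members with under 50 UMIs in a cluster. At homeostasis the columns of Egr1, Fos and Jun are blue wherever they are not grey, and after 5-FU the rows of clusters 1, 5, 6 and 7 are blue while Fos, Fosb, Junb, Ier2 and Nr4a1 are above 0 in cluster 8.

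The level itself also varied between clusters, described here within each genotype over the clusters with at least 50 cells of both. At homeostasis the sum was highest in the LT-HSC-like clusters 7 and 6, at 416 and 387 CPM in wild-type and 245 and 237 CPM in Sin3B-/- cells. It was lowest in cluster 10 of G2 and mitotic genes and cluster 0 of S phase genes, at 179.5 and 203 CPM in wild-type and 112 and 145 CPM in Sin3B-/- cells. Egr1 was highest in cluster 7 in both genotypes (74.8 and 31.7 CPM). After 5-FU the order of the clusters differed between the genotypes. In wild-type cells the sum was highest in clusters 1 and 5 (3432 and 3398 CPM) and lowest in cluster 3 (720 CPM), which was led by S phase and megakaryocyte-erythroid genes such as Ung, E2f1 and Pf4. In Sin3B-/- cells it was highest in cluster 8 (2042 CPM) and lowest in cluster 7 (689 CPM), the shallow cluster high in mitochondrial UMIs, followed by the histone-led cluster 4 (846 CPM). Egr1 was highest in cluster 1 in wild-type cells (879 CPM) and in cluster 5 in Sin3B-/- cells (324 CPM). Nr4a1 was highest in cluster 8 in wild-type and in Sin3B-/- cells (29.3 and 59.2 CPM).

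Members were found together in the same cells after 5-FU. The measure was Pearson's r over thinned cells of log(1 + UMIs), a description over cells of 1 library. Among 28 pairs of the 8 members found in at least 5% of cells after 5-FU, the median r was 0.24 in 4343 wild-type cells and 0.18 in 3137 Sin3B-/- cells. Egr1 and Fos had r = 0.50 in wild-type and 0.31 in Sin3B-/- cells, Fos and Fosb 0.47 and 0.30, and Egr1 and Jun 0.41 and 0.28. Fosb and Nr4a1 had the lowest value, 0.01 and 0.04. In counts, 70.3% of wild-type cells with Fos also had Egr1 (68.2 to 72.3) against 32.8% of those without (30.9 to 34.8). In Sin3B-/- cells these shares were 52.6% (49.8 to 55.5) and 28.2% (26.2 to 30.3). Fosb was found in 36.4% of wild-type cells with Fos and 10.53% of those without. At homeostasis the highest r among 21 pairs in wild-type cells was 0.10 (Egr1 and Junb), and a correlation this weak in counts this sparse is no finding. In counts, Egr1 was found in 15.6% of wild-type cells with Fos (13.6 to 17.8) and 9.81% of those without (9.19 to 10.46), and Jun in 29.9% and 22.0%.

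**Figure D5:**
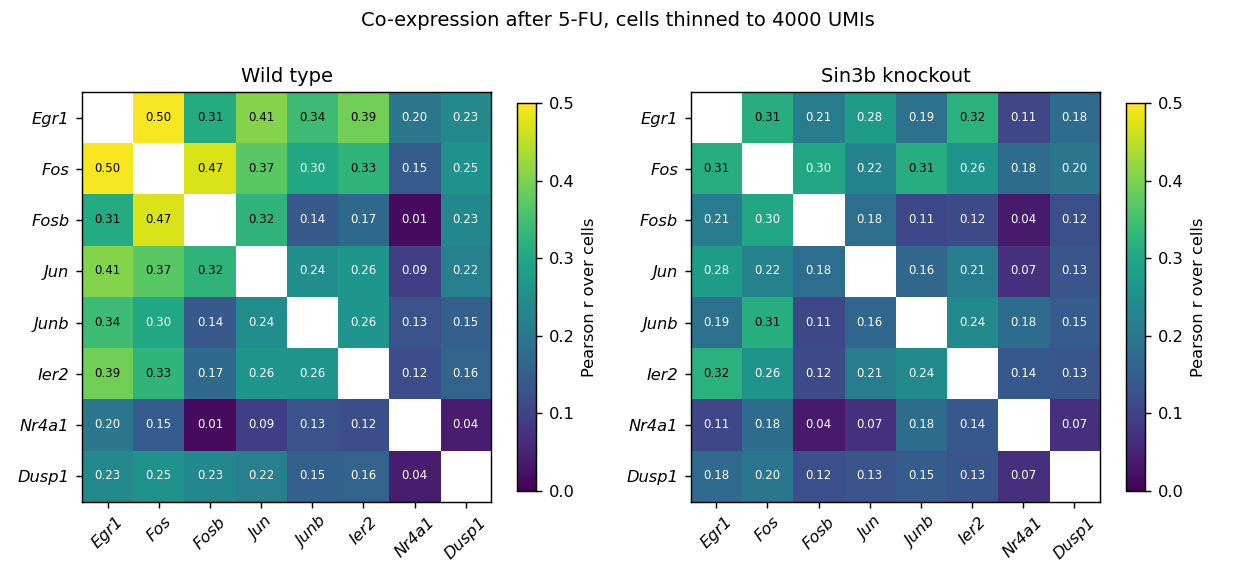
Pearson's r over cells (colour and printed value) between 8 members after 5-FU, in 4343 wild-type cells (left) and 3137 Sin3B-/- cells (right) thinned to 4000 UMIs. The highest values in wild-type cells are 0.50 for Egr1 and Fos, 0.47 for Fos and Fosb, 0.41 for Egr1 and Jun and 0.39 for Egr1 and Ier2, the highest in Sin3B-/- cells is 0.32 for Egr1 and Ier2, and Nr4a1 has values of at most 0.20 with any member.

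Of 7691 other genes found in at least 5% of thinned cells in each library, those most like the mean of the members over cells were Jund, Zfp36, Malat1, Srsf5, Dusp2, Btg2, Ppp1r15a, Nfkbiz, Txnip and Rgs1. The likeness was weak at homeostasis, where the highest r of any such gene was 0.15. After 5-FU r was 0.49 for Jund, a further AP-1 subunit, 0.41 for Zfp36, which binds AU-rich mRNAs for decay, and 0.34 for the nuclear RNA Malat1. Jund was lower in Sin3B-/- cells in both libraries, at 114 and 78.6 CPM at homeostasis (log2 ratio -0.54) and 291 and 214 CPM after 5-FU (-0.44). Zfp36 differed by -0.23 and -0.61. Ppp1r15a, a stress-induced phosphatase subunit, went the other way, with 0.44 at homeostasis and 0.15 after 5-FU.

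Among 25 other immediate early genes, 19 had at least 50 UMIs in each library. At homeostasis 12 of the 19 were below 0, beside 48.7% of all genes, and the median was -0.06. The Kruppel-like factor Klf2 (3.87 and 1.91 CPM, -1.01) was the 1 gene at least 1.5-fold lower, and the clock gene Per1 (25.01 and 44.5 CPM, 0.83) the 1 at least 1.5-fold higher, beside 5.08% and 5.48% of all genes. After 5-FU 17 of the 19 were below 0, beside 54.0% of all genes, with a median of -0.38. At least 1.5-fold lower were 3, beside 4.83% of all genes: Klf4 at -0.70, Zfp36 at -0.61 and the antiproliferative gene Btg2 at -0.59. None was at least 1.5-fold higher, and Per1 was at -0.41. No gene of the pathway lists was at least 1.5-fold different in the same direction in both libraries with intervals leaving out 0, so the listed genes named here were chosen after their values were seen.

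Genes of the cascades upstream of the members were counted beside the 5.08% lower and 5.48% higher of all genes at homeostasis and 4.83% and 3.66% after 5-FU, and in lists this short a count of 0 is near those shares. Of 10 genes of the Ras-ERK cascade none was at least 1.5-fold different in either library, with medians of -0.02 and 0.01, and summed levels were 655 and 648 CPM at homeostasis and 581 and 579 CPM after 5-FU. The 7 genes of the p38 and JNK cascades had none past 1.5-fold and medians of 0.00094 and -0.08. Among 9 SRF, TCF and CREB family factors none passed 1.5-fold, with medians of 0.03 and -0.12, and Srf was at 6.30 and 5.83 CPM at homeostasis and 10.3 and 9.65 CPM after 5-FU. Nab1 and Nab2, corepressors that bind EGR proteins and are themselves EGR targets, were within 1.5-fold over all kept cells of both libraries. In LT-HSC-like cells after 5-FU, Nab2 was higher in Sin3B-/- cells (20.2 and 30.8 CPM, 0.61, 0.34 to 0.88), beside 4.11% of all genes at least 1.5-fold higher. This ratio is over clusters 1 and 8, which the genotypes filled unequally, and it was not recomputed with matched clusters. These are transcript levels and do not measure kinase activity. Of the ERK feedback inhibitors, 2 of 7 were at least 1.5-fold higher in Sin3B-/- cells at homeostasis, beside 5.48% of all genes. These were the nuclear ERK phosphatase Dusp4 (2.20 and 5.52 CPM, 1.33) and Spry1, an inhibitor of receptor signalling (2.86 and 5.64 CPM, 0.98). Within LT-HSC-like cells, 22.1% of wild-type and 39.9% of Sin3B-/- cells at homeostasis, Dusp4 was at 0.73 and Spry1 at 0.59. The part of pool makeup in the ratios over all kept cells was not tested. Over all kept cells the list was mixed, with 2 of the 7 below 0: Dusp5 at -0.45 (-0.64 to -0.26) and Spry2 at -0.42 (-0.65 to -0.21). Its sum was 166 and 175 CPM (0.07). After 5-FU Dusp4 was at 0.39 and Spry1 at 0.38, and 3 of the 8 genes were below 0. Spry4 was the 1 of 8 past 1.5-fold (0.381 and 0.825 CPM, 1.099) on 20 and 36 UMIs, beside 3.66% of all genes.

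Of 10 heat shock genes, which handling also induces, 8 had at least 50 UMIs. None was at least 1.5-fold different, beside 5.08% lower and 5.48% higher of all genes at homeostasis and 4.83% and 3.66% after 5-FU. In a list this short a count of 0 is near those shares. The 10 heat shock genes summed to 3539 and 3132 CPM at homeostasis (-0.18) and 5938 and 5806 CPM after 5-FU (-0.03). The inducible Hspa1b was nearly absent, with 8 and 7 UMIs in all wild-type and Sin3B-/- cells at homeostasis and 14 and 17 UMIs after 5-FU, and Hspa1a gave at most 9 UMIs in a pool. The median mitochondrial share was 2.12% and 2.38% at homeostasis and 3.24% and 3.37% after 5-FU. Of 6 mature neutrophil markers 1 was at 0 and none was lower in Sin3B-/- cells at homeostasis, where their summed level was 11.1 and 52.5 CPM, against 5.59 and 4.38 CPM after 5-FU. Summed erythroblast markers were 45.7 and 52.9 CPM at homeostasis (3 of 6 genes lower in Sin3B-/- cells) and 59.5 and 92.9 CPM after 5-FU (2 of 6 lower). Summed B lineage markers were 34.2 and 41.7 CPM at homeostasis (1 of 6 genes lower) and 38.3 and 30.8 CPM after 5-FU (6 of 6 lower). Basophil and mast cell markers were at 127.5 and 171 CPM at homeostasis and at 235 and 235.5 CPM after 5-FU. At homeostasis 5 of the 6 basophil and mast cell genes were lower in Sin3B-/- cells although their sum was higher. Within LT-HSC-like cells at homeostasis the neutrophil markers were at 11.8 and 10.8 CPM, basophil and mast cell markers at 134 and 203 CPM (4 of 6 genes lower in Sin3B-/- cells and 1 at 0), monocyte and macrophage markers at 34.9 and 26.4 CPM, and erythroblast markers at 58.3 and 43.3 CPM. Within LT-HSC-like cells after 5-FU they were at 3.98 and 6.21, 257 and 336, 80.2 and 48.6, and 63.8 and 81.9 CPM, in the same order. The part of handling and of other cells in the member levels was not tested.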

How the data were processed

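LSK cells of both genotypes were sequenced as 1 gene library and 1 hashtag library per condition. The authors deposited UMI counts per gene and barcode, made with Cell Ranger (version 4 at homeostasis and 6.0.1 after 5-FU, per the file headers), and the submitters' processing notes name mm9, Seurat and DESeq2. The homeostasis matrix was read with the gene order of the 5-FU feature list. Cells at homeostasis were barcodes of at least 2921 UMIs. Genotype was called from hashtag counts with HTODemux (Seurat 5.3.0, quantile 0.99), and cells with both tags, which include doublets, or no tag were left out. The 2% of cells at each extreme of the quality measures and cells with mature lineage transcripts were removed. Cells were clustered in scanpy 1.11.5 (2000 variable genes, 30 components, 20 neighbours, resolution 1) without the members, the listed genes and the genes at least 1.5-fold different between genotypes, the last a choice made after clusters were seen to split by genotype. A cluster led mostly by histone genes was left unnamed, also decided after seeing the data. Counts were summed per pool and given as CPM. Ratios are of summed counts over genes with at least 50 UMIs, and the code that computes them and their intervals was checked on simulated counts. The members and lists were chosen with earlier results of these data known. Named genes were the members, listed genes at least 1.5-fold different in the same direction in both libraries (0 genes), the 10 genes most like the members over cells and the leading genes of clusters described. Other listed genes were named after their values were seen.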

Additional observations from a re-analysis of the deposited data

Results flagged for a closer look

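Dusp1 had a log2 ratio of Sin3B-/- over wild type of 0.19 at homeostasis (0.03 to 0.34) and of -0.54 after 5-FU (-0.62 to -0.46). It was picked out because the single pools of the libraries moved in opposite directions, and the difference was not tested. The value at homeostasis was 0.0094 in cells thinned to 4000 UMIs and 0.012 with Sin3B-/- cells weighted to the wild-type cluster shares. In LT-HSC-like cells at homeostasis it was 0.18, and -0.13 with a tag share of at least 80%.

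The 10 members summed to 4096 CPM in the smallest barcodes of the homeostasis library (10 to 100 UMIs), which no comparison used, against 333 CPM in empty droplets of over 100 and up to 300 UMIs. These barcodes also held the keratinocyte keratins Krt14 (1827 CPM) and Krt5 (892 CPM), and the source of their RNA was not tested.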

How the results depend on the processing

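The summed ratio of the members was below 0 in all 36 alternatives run, between -0.80 and -0.13. In 18 of the 36 it lay outside the counting interval of the main value. In all cells at homeostasis (-0.55) it was -0.50 with a tag share of at least 80% (2 members at least 1.5-fold lower, without Jun), -0.60 in thinned cells and -0.68 with Sin3B-/- cells weighted to the wild-type cluster shares, where 5 members were lower against 3. In LT-HSC-like cells at homeostasis (-0.72) it was -0.79 with the 80% tag share and -0.80 in thinned cells. In all cells after 5-FU (-0.49) it was -0.46 in cells of at least 5000 UMIs and -0.56 without quality filters. As mean per-cell CPM it was -0.65 (6 members lower, against 3) and in thinned cells -0.59 (6 members lower). Relative to the median gene it was -0.47, with TMM factors -0.47 and with matched clusters -0.38. In LT-HSC-like cells after 5-FU (-0.39) it was -0.35 with the 80% tag share, -0.54 as mean per-cell CPM, -0.52 in thinned cells (5 members lower), -0.56 at resolution 2 (5 members lower), -0.48 with clustering on all variable genes and -0.13 with matched clusters (2 members lower, without Jun), and 2 members were lower in cells of at least 5000 UMIs (without Egr1), against 3. Of 306 values of single members, 74 lay outside the counting interval of the main value. A further 2 had the opposite sign of a main value whose interval left out 0. These were Nr4a1 in all cells after 5-FU, at -0.041 as mean per-cell CPM, and Fos in LT-HSC-like cells after 5-FU, at 0.16 with matched clusters. The share of all genes at least 1.5-fold lower was 11.99%, 17.92%, 15.5% and 15.26% without a count filter (all and LT-HSC-like cells at homeostasis, then after 5-FU) and 3.24%, 2.01%, 2.58% and 1.97% for genes of at least 200 UMIs. Median r of the members without thinning was 0.054 in Sin3B-/- cells at homeostasis, and 0.33 and 0.27 in wild-type and Sin3B-/- cells after 5-FU. The cause of these shifts was not tested. Of 54 values of Egr1, Fos and Jun at homeostasis, 54 were below 0 and 53 at least 1.5-fold lower. These 3 genes were those already past 1.5-fold in all cells with the main settings. Every setting reused the same pools, so this count is no independent support.

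Clustering on all variable genes, matched clusters within LT-HSC-like cells, leaving out cluster 7 and the empty-droplet window were chosen after seeing the data. Naming clusters at 2-fold left no LT-HSC-like cluster after 5-FU, and cells outside the quality filters were not clustered, so neither gave a value there. The gene lists were not recomputed, and the share of all genes at least 1.5-fold lower was recomputed only for other UMI cutoffs. Member counts in the other settings therefore have no matching share beside them. Replicates were not left out in turn, since each genotype was 1 pool per library. No paired analysis was possible because the groups compared are single pools in 1 library and the result comes from no test.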

Other observations

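Cells that HTODemux gave no genotype entered no comparison. The 6283 cells without a tag at homeostasis had Sin3b at 29.0 CPM and the 10 members at 229 CPM (Fos at 32.0, Jun at 57.9 and Egr1 at 16.0 CPM), and the 3290 such cells after 5-FU had 21.7 and 1395 CPM (Fos at 217, Jun at 415 and Egr1 at 256 CPM). Cells with both tags had the members at 236 CPM at homeostasis and 1292 CPM after 5-FU.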
